A study of Mus musculus with 8 samples.

Results

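The constitutive proteasome genes were taken from the probe table by symbol: every row whose name starts with Psma, Psmb, Psmc or Psmd and a digit, apart from the interferon-inducible Psmb8, Psmb9 and Psmb10. They came to 34 genes on 50 probes, out of 18138 gene symbols on 25697 probes. Of these, 14 genes encode the core particle, 16 encode subunits of the regulatory particle and 3 (Psmd5, Psmd9 and Psmd10) encode chaperones that help to assemble the regulatory particle. The remaining gene, Psmc3ip, carries a matching name but encodes a meiotic recombination partner and no proteasome subunit. A probe entered the tests when its detection p-value was under 0.05 on at least 2 arrays, and 31 of the 34 genes had such a probe, among 10163 genes tested.

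The arrays measured bone marrow-derived macrophages of 8-week-old female mice, WT or iNOS-/-, cultured with GM-CSF at 10 ng/ml over 7 days. The labels give all samples the strain C57bl/6J, while the study's methods name the iNOS-deficient mice as B6.129P2-Nos2tm1Lau/J. M1 cells had LPS at 200 ng/ml and IFN-γ at 10 ng/ml for 6 h, and unstimulated cells had neither. Each of the 4 groups was measured on 2 bead arrays, 8 in all. Nothing says that the arrays of a group came from separate mice or cultures, so p-values measure the spread between arrays, which may be technical. The targeted gene did not check the labels. Nos2, the gene for iNOS, had log2 intensities of 7.47 and 7.05 on the WT M1 arrays and of 7.49 and 7.67 on the arrays labelled iNOS-/- M1 (difference 0.32, SE 0.32, limma adjusted p = 0.44). The sources used here do not say whether its probe lies in the deleted part, so iNOS-/- below stands for arrays so labelled. All 8 macrophage markers on the arrays were detected on all 8 arrays (their levels are given with the other marker lists), and none of the lymphocyte markers passed the detection filter.

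The proteasome degrades proteins that carry chains of ubiquitin. Its core particle is a barrel of stacked rings, with alpha subunits forming the outer rings and the gate, and beta subunits forming the inner rings, where Psmb5, Psmb6 and Psmb7 hold the active sites. The regulatory particle caps the barrel: the Psmc ATPases unfold the substrate and thread it in, and the Psmd subunits recognise, hold and strip ubiquitin from it. In cells given IFN-γ, newly built core particles can take up the inducible subunits Psmb8, Psmb9 and Psmb10 in place of Psmb5, Psmb6 and Psmb7, which alters the peptides passed to MHC class I molecules. Genes of the constitutive particle are known targets of the factor Nfe2l1, which acts through antioxidant response elements when proteasome activity runs short.

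The promoters are shown because genes of the core and of the regulatory particle rose together in the arrays. RefSeq windows on build GRCm38.p6 were given for 29 of the 34 genes (31 windows), and the 250 bases before each start were searched on both strands for 4 motifs. Windows were not given for Psmb1, Psmb2, Psmb7, Psmc3 and Psmd7. The antioxidant response element core TGACNNNGC was found in 5 of 31 windows (16.1%, against 10.2% of 32851 windows of all genes), in Psmb5, Psmb6, Psmc6, Psmd9 and Psmd12. The box CCAAT, bound by NF-Y, was found in 12 windows (38.7% against 33.8%). The interferon-gamma activated site TTCNNNGAA was found in 0 windows (7.02% of all), and the core of the interferon-stimulated response element, GAAA and GAAA set 2 bases apart, in 3 (9.68% against 2.98%), those of Psmb3, Psmd4 and Psmd9. Matches to different motifs did not overlap in any window of a member. Capitals mark matches to any of the 4 motifs, read on either strand. Psma5 is the member with the largest difference between the M1 groups by brightest probe, and it held no match (chr3:108256676-108256925, plus strand). Psmb5 (chr14:54617996-54618245, minus strand) and Psmb6 (chr11:70525107-70525356, plus strand) encode catalytic subunits and hold the antioxidant response element core. Psmb8 (chr17:34197945-34198194, plus strand), the inducible counterpart of Psmb5, holds the interferon-gamma activated site. Psmd14 (chr2:61711444-61711693, plus strand) encodes the deubiquitinase of the lid and holds a CCAAT box on the opposite strand. A match to letters is no evidence of binding.
Psma5: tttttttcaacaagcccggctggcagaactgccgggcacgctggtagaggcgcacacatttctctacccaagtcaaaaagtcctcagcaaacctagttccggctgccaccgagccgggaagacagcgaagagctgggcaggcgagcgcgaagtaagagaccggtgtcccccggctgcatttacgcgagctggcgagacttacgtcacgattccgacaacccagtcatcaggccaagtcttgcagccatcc
Psmb5: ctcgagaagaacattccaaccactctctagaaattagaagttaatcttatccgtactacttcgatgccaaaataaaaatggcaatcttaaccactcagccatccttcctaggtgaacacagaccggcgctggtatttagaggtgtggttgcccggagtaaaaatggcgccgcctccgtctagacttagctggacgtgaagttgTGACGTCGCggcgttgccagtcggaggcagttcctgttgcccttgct
Psmb6: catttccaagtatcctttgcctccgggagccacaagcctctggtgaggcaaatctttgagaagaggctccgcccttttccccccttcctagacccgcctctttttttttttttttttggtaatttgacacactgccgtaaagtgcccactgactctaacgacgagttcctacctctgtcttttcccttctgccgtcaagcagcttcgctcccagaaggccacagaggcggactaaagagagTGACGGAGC
Psmb8: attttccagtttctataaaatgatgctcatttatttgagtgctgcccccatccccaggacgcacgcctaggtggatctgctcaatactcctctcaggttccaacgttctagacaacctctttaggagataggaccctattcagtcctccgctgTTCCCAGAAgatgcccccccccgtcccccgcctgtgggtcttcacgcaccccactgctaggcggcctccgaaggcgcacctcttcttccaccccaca
Psmd14: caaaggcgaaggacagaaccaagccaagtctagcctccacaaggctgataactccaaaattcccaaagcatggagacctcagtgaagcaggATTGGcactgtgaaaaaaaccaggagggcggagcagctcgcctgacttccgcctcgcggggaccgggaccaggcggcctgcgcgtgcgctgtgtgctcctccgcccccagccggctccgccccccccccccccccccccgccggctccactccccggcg

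Values below are log2 intensities after rank-invariant scaling, where a difference of 1 is a 2-fold difference. The 31 tested genes were detected on all 8 arrays, and most were bright. The median place of the 31 among the 10163 tested genes, ranked by mean log2 intensity, was percentile 90.0, with 95.6 for the core particle, 83.8 for the regulatory particle and 23.2 for the dimmest, the ATPase gene Psmc6. Psmd2, Psmd9, Psmc3ip, Psmd5, Psmd1 and Psmd6 lay at percentiles 30.3 to 47.3. Intensities of different probes were not set against each other, since a probe's own binding sets its brightness. Probes for the alpha subunit genes Psma1, Psma3 and Psma6 were not detected on any array and give no result. Both arrays of a group differed by a median of 0.06 to 0.10 over these genes, against 0.16 to 0.19 over all probes tested.

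**Figure D1:**
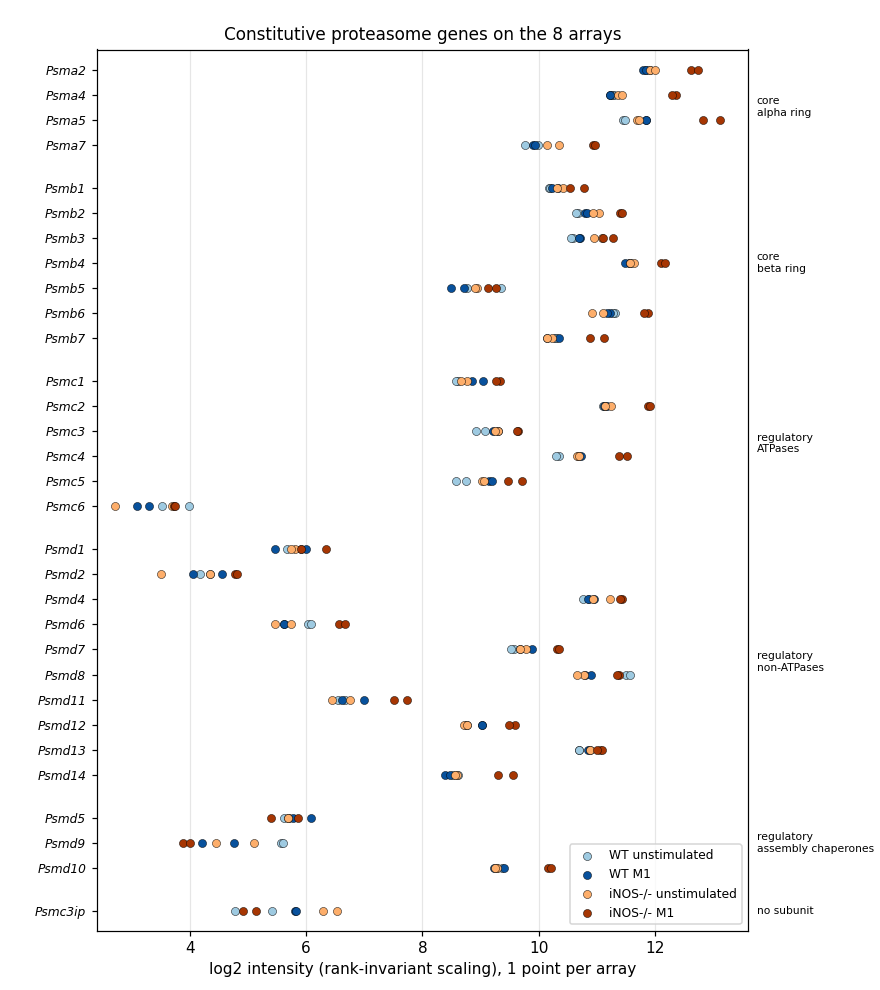
Log2 intensity of the 31 tested genes on the 8 arrays, with 1 point per array, coloured by group and arranged by role. Both iNOS-/- M1 arrays lie to the right of the other 6 arrays for 23 of the 31 genes.

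Proteasome genes were higher in iNOS-/- M1 cells than in WT M1 cells. Of the 31 genes, 23 were called higher and 1 lower at an adjusted p under 0.05, where 23.7% of all genes tested were called higher and 26.0% lower. In the core particle 10 of 11 genes rose, with a median difference of 0.64, and in the regulatory particle 12 of 16 subunit genes rose, with a median of 0.52. The median over all genes was −0.03. The differences were modest in size: 3 of the 31 genes were both called and at least 2-fold apart, where 24.7% of all genes were. On both iNOS-/- M1 arrays, 23 of 31 genes lay above all 6 other arrays, as 26.6% of all genes did.

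By the brightest probe of each gene, the 3 largest differences were in the alpha ring, while other probes of Psmd10 and Psmd7 gave 1.24 and 1.22. Psma5 had log2 intensities of 11.85 and 11.85 on the WT M1 arrays, 13.12 and 12.83 on the iNOS-/- M1 arrays, 11.45 and 11.48 on the WT unstimulated arrays and 11.69 and 11.73 on the iNOS-/- unstimulated arrays. The iNOS-/- M1 arrays stood alone above the other 6. The difference between the M1 groups was 1.12 (SE 0.12, limma adjusted p = 0.0012), or 2.18-fold. Psma4 had 11.23 and 11.22 on the WT M1 arrays against 12.37 and 12.29 on the iNOS-/- M1 arrays, a difference of 1.10 (SE 0.08, limma adjusted p = 0.00044). Psma7 had 9.90 and 9.94 against 10.93 and 10.96, a difference of 1.03 (SE 0.12, limma adjusted p = 0.0016). The other Psma7 probe gave 0.645, within the range of the beta ring below, and was called. Psma2 had 11.79 and 11.84 against 12.63 and 12.74, a difference of 0.87 (SE 0.09, limma adjusted p = 0.0012). For each of these genes, which encode the ring that gates the barrel, the groups did not overlap, and all 4 measured alpha genes were called higher under each of the 17 other settings run.

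By brightest probe the beta ring moved less, with 6 of 7 genes called higher and differences of 0.37 to 0.76. Psmb7, which encodes the trypsin-like catalytic subunit, had 10.35 and 10.14 on the WT M1 arrays and 11.12 and 10.89 on the iNOS-/- M1 arrays, a difference of 0.76 (SE 0.13, limma adjusted p = 0.0057). Psmb6, for the caspase-like subunit, had 11.23 and 11.17 against 11.89 and 11.81, a difference of 0.64 (SE 0.10, limma adjusted p = 0.0045). Psmb5, for the chymotrypsin-like subunit, had 8.71 and 8.50 against 9.13 and 9.26, a difference of 0.59 that was not called (SE 0.21, limma adjusted p = 0.067). Its WT unstimulated arrays, at 8.76 and 9.34, were the farthest apart of any pair among the core genes. The noncatalytic genes Psmb2, Psmb3 and Psmb4 had differences of 0.60, 0.49 and 0.62, and Psmb1 of 0.37, the smallest of the ring by brightest probe. Psmb1 was at −0.04 under both quantile normalization and neqc, so its direction turned with the scaling.

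In the regulatory particle, 5 of 6 ATPase genes were called higher, with differences of 0.35 to 0.75 among all 6. Psmc2 had log2 intensities of 11.12 and 11.17 on the WT M1 arrays and of 11.88 and 11.91 on the iNOS-/- M1 arrays, a difference of 0.75 (SE 0.08, limma adjusted p = 0.0013). Psmc4 had 10.67 and 10.73 against 11.38 and 11.51, a difference of 0.74 (SE 0.09, limma adjusted p = 0.0019). Psmc6 alone in this group was not called, at 0.53 (SE 0.35). It was the dimmest member. Its arrays of 2.72 and 3.69 in the iNOS-/- unstimulated group were the farthest apart of any pair by brightest probe.

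Of the 10 non-ATPase genes, 7 rose and the other 3 (Psmd1, Psmd2 and Psmd13) were not called, with differences of 0.40, 0.49 and 0.18. Psmd6, a lid subunit gene, had 5.63 and 5.61 on the WT M1 arrays and 6.57 and 6.66 on the iNOS-/- M1 arrays. Its difference was 0.997 (SE 0.11, limma adjusted p = 0.0016). Psmd14, for the deubiquitinase of the lid, had 8.39 and 8.48 against 9.29 and 9.57, a difference of 0.99 (SE 0.12, limma adjusted p = 0.0019). Psmd11, another lid subunit gene, had 7.00 and 6.62 against 7.73 and 7.51, a difference of 0.81 (SE 0.18, limma adjusted p = 0.016). The Psmd11 call was lost without WT M1 replicate 2 (limma adjusted p = 0.068) or iNOS-/- M1 replicate 1 (limma adjusted p = 0.075). For all 3 genes the iNOS-/- M1 arrays lay above every other array.

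The assembly chaperones did not move as a group. Psmd10 had 9.23 and 9.40 on the WT M1 arrays and 10.16 and 10.22 on the iNOS-/- M1 arrays, a difference of 0.87 (SE 0.10, limma adjusted p = 0.0015). Psmd5 and Psmd9 were not called, with differences of −0.31 and −0.53. Psmc3ip, the gene that encodes no subunit, was the sole member called lower, with 5.81 and 5.83 against 4.92 and 5.13 (difference −0.79, SE 0.23, limma adjusted p = 0.038), a call lost under 11 of the 17 other settings. These were quantile normalization (limma adjusted p = 0.080), a floor of 16 (0.054), no detection filter (0.085), an intercept in the scaling line (0.057) and the replicate number as a block (0.067). The others left out either WT M1 array (limma adjusted p = 0.117 and 0.124), either iNOS-/- unstimulated array (limma adjusted p = 0.060 for both) or either iNOS-/- M1 array (limma adjusted p = 0.144 and 0.077).

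**Figure D2:**
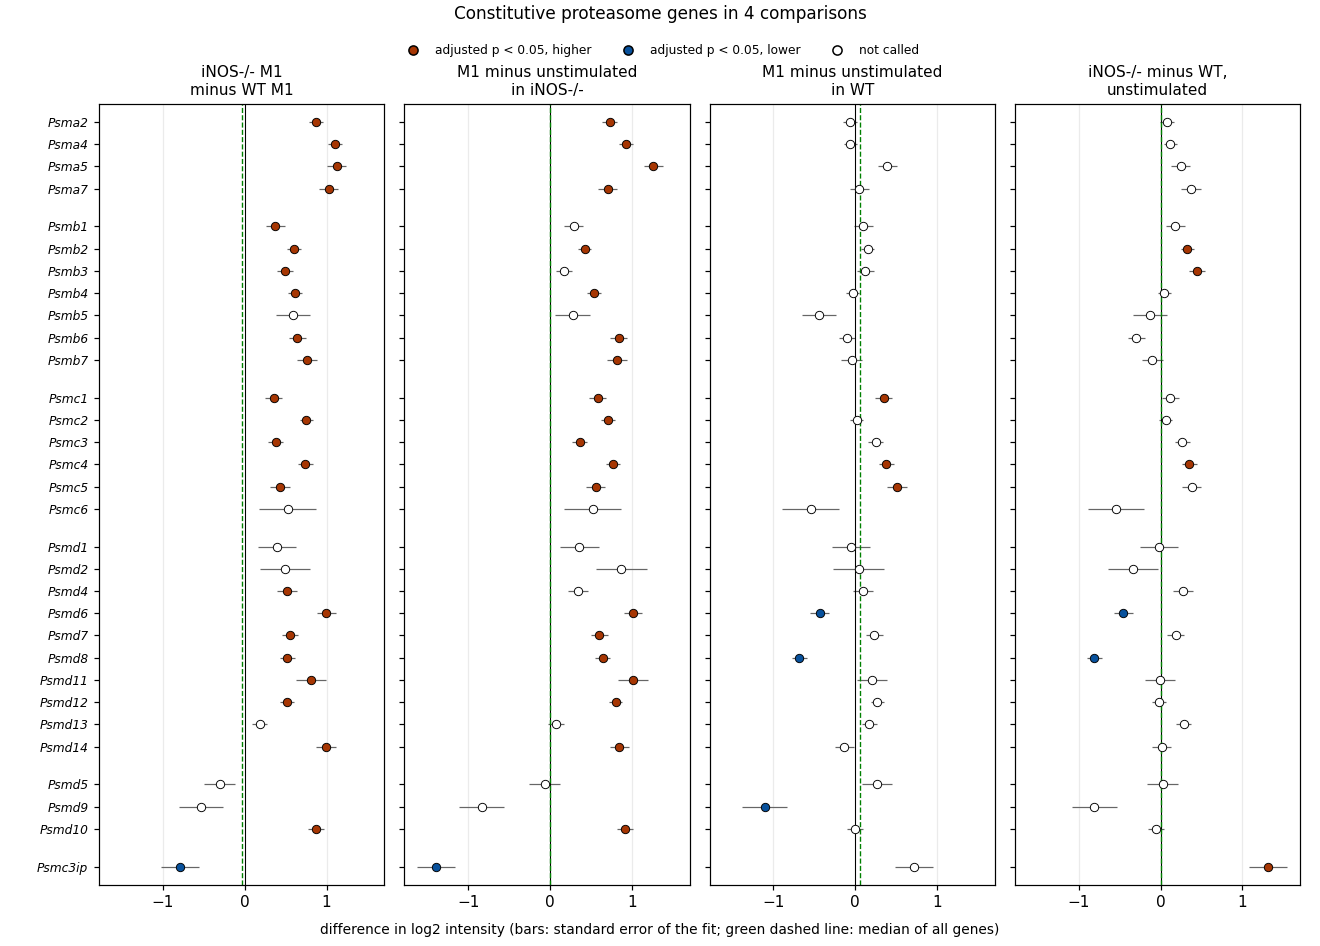
Difference in log2 intensity with its standard error for each of the 31 genes in 4 comparisons, filled where the adjusted p was under 0.05, and with the median of all genes as a dashed line. In iNOS-/- M1 cells, 23 genes were called higher than in WT M1 cells and 20 higher than in unstimulated iNOS-/- cells, and 3 were called higher in the WT response. Of all genes tested, 23.7%, 25.2% and 20.9% were called higher in these comparisons. With quantile normalization and neqc as well, 11, 8 and 3 of the genes kept the call.

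The size of these differences depended on how the arrays were put on one scale, so the members were also compared with other bright genes. The iNOS-/- M1 arrays had mean scaled intensities of 246.4 and 250.1, against 181.0 to 202.3 on the other 6 arrays. Among the 1755 genes at least as bright as the dimmest core member tested (mean log2 intensity 8.94), 42.2% were called higher and 21.5% lower between the M1 groups, with a median of 0.21. Under quantile normalization the median of these bright genes was −0.14, that of the core particle 0.34 and that of the regulatory particle 0.28. The bright set was not matched in brightness to either particle. The regulatory median covers all 16 subunit genes, of which 9 reached that brightness. Set against bright genes, 20 of the 21 members of that brightness lay above the bright-gene median with rank-invariant scaling, with quantile normalization and with neqc, including all 11 core genes. Counts of calls fell to 11 under quantile normalization and 16 under neqc, for which no shares of all genes called are given. The 11 genes called higher under rank-invariant scaling, quantile normalization and neqc alike were Psma2, Psma4, Psma5, Psma7, Psmc2, Psmc4, Psmd6, Psmd10, Psmd11, Psmd12 and Psmd14, and the part of overall array brightness in the other calls was not tested.

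**Figure D3:**
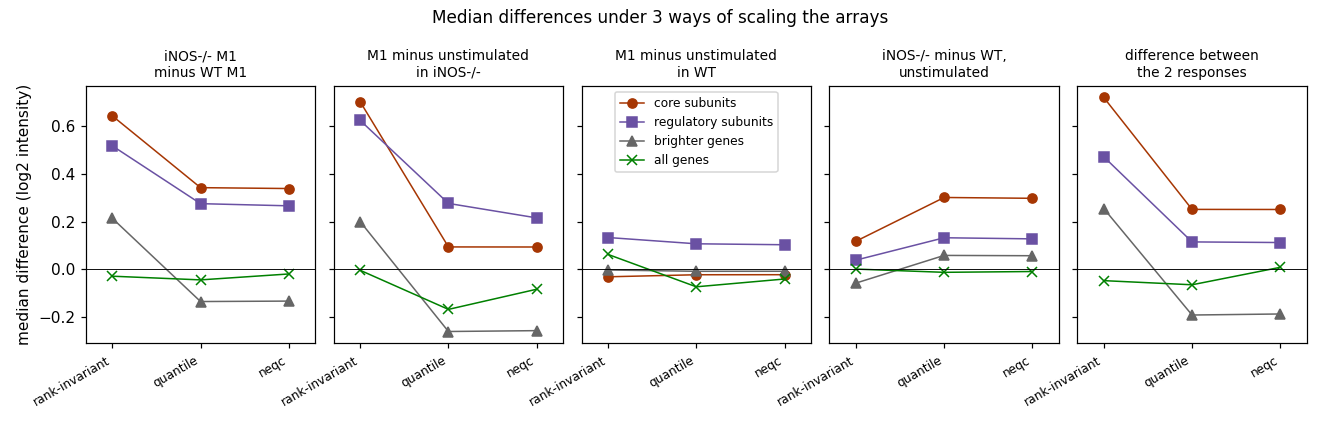
Median log2 difference of core subunit genes, regulatory subunit genes, the 1755 brighter genes and all genes in each comparison, under 3 ways of scaling the arrays. The regulatory median covers all 16 subunit genes, of which 9 are as bright as the brighter genes. The core median between the M1 groups was 0.64 with rank-invariant scaling and 0.34 with quantile normalization, above the bright-gene median in both cases (0.21 and −0.14).

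With rank-invariant scaling, LPS and IFN-γ raised proteasome genes in the iNOS-/- cultures. Between iNOS-/- M1 and iNOS-/- unstimulated arrays, 20 of 31 genes were called higher and 1 lower (25.2% and 26.8% of all genes), and 4 were called and at least 2-fold apart (29.0% of all genes). In the core particle 8 of 11 genes rose, with a median of 0.70, and in the regulatory particle 11 of 16, with a median of 0.63. By brightest probe Psma5 again differed most among the subunits, at 1.26 (SE 0.12, limma adjusted p = 0.00063), while the other Psmd11 probe gave 1.28. Psmd11 and Psmd6 each differed by 1.02, and Psma4 by 0.93. The catalytic genes Psmb6 and Psmb7 differed by 0.84 and 0.82, and Psmb5, at 0.28, was not called. Psmc3ip fell from 6.29 and 6.54 to 4.92 and 5.13, a difference of −1.39 (SE 0.23, limma adjusted p = 0.0052).

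Much of this response turned on the scaling, in both particles. Psmb2 and Psmb4, called higher by 0.42 and 0.54, were at −0.18 and −0.13 under quantile normalization, where the median of bright genes was −0.26 (0.20 with rank-invariant scaling) and that of all genes −0.17. The core median was then 0.09 and the regulatory median 0.28. Of the 21 bright members, 19 lay above the bright-gene median with each of the 3 scalings. Of the 20 genes called higher, 8 were so called with all 3 scalings: Psma4, Psma5, Psmc1, Psmd6, Psmd10, Psmd11, Psmd12 and Psmd14.

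In WT cells, 3 of the 31 genes were called higher on the same stimulus and 3 lower, where 20.9% of all genes were called higher and 15.5% lower, and 1 was called and at least 2-fold apart (15.3% of all genes). Under neqc 7 were called higher and 4 lower, with no share of all genes given for that scaling. Of the 11 core genes 0 were called by limma with rank-invariant scaling and 1 had an unadjusted p under 0.05. This was Psma5, which at 0.39 (SE 0.12) missed the threshold with an adjusted p of 0.053 and passed it under 7 of the 17 other settings. The genes called higher were ATPase genes. Psmc5 went from 8.75 and 8.57 to 9.14 and 9.20, a difference of 0.51 (SE 0.12, limma adjusted p = 0.025), while its other probe gave −0.02 and was not called. Psmc4 differed by 0.38 and Psmc1 by 0.35, the latter at an adjusted p of 0.049.

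The genes that fell in WT cells were Psmd6, Psmd8 and Psmd9. Psmd8, a lid subunit gene, went from 11.49 and 11.57 to 10.80 and 10.90, a difference of −0.68 (SE 0.09, limma adjusted p = 0.0044) that was called under all 17 other settings. Psmd6 went from 6.03 and 6.08 to 5.63 and 5.61, a difference of −0.44 (SE 0.11, limma adjusted p = 0.034). Psmd9, an assembly chaperone gene, went from 5.57 and 5.60 to 4.20 and 4.75, a difference of −1.11 (SE 0.27, limma adjusted p = 0.030), while its other probe gave 0.22 and was not called. All calls of this response except that of Psmd8 were lost when some array of the WT groups was left out.

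Before stimulation the count of proteasome genes that differed between the genotypes depended on the scaling. Comparing iNOS-/- with WT unstimulated cells, 4 of 31 genes were called higher and 2 lower (17.9% and 16.2% of all genes), and 1 was called and at least 2-fold apart (14.6% of all genes). The core median was 0.12 and the regulatory median 0.04, with a bright-gene median of −0.06. Under quantile normalization 10 genes were called higher and 2 lower, and under neqc 13 higher and 3 lower, with core medians of 0.30 in both, regulatory medians of 0.13 in both and bright-gene medians of 0.06 in both. Shares of all genes called are not given for these scalings. The core median between the M1 groups was 0.34 under both of them. Psmb3, a noncatalytic beta subunit gene, went from 10.59 and 10.56 in WT to 10.95 and 11.09, a difference of 0.45 (SE 0.10, limma adjusted p = 0.024). Psmb2 and Psmc4 differed by 0.33 and 0.35. Psmd8 had the lowest adjusted p of the 6, with 11.49 and 11.57 on the WT arrays and 10.79 and 10.66 on the iNOS-/- arrays, a difference of −0.81 (SE 0.09, limma adjusted p = 0.0027). Psmd6 was lower by a smaller amount (−0.45, SE 0.11, limma adjusted p = 0.032). Psmc3ip had 5.42 and 4.78 on the WT arrays and 6.29 and 6.54 on the iNOS-/- arrays, a difference of 1.32 (SE 0.23, limma adjusted p = 0.011). All 6 calls except that of Psmd8 were lost when some unstimulated array was left out.

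The responses of the genotypes were then compared directly, by subtracting the WT response from the iNOS-/- response. The difference was above 0 and called for 13 of 31 genes and below 0 and called for 1, where 20.1% and 23.6% of all genes were called, and 3 members passed a 2-fold minimum (28.2% of all genes). The 13 genes above 0 were 7 of 11 core genes, 5 of 16 regulatory subunit genes and Psmd10. Among the 1755 bright genes 37.9% were called above 0 and 17.3% below 0, with a median of 0.25. Of the 21 members of that brightness 15 lay above this median, with 9 of 11 core genes and 5 of 9 regulatory subunit genes. Under quantile normalization and neqc 14 of the 21 lay above the bright-gene median. The core median was 0.72, the regulatory median 0.47 and the median of all genes −0.05. All 4 measured alpha genes were called, with differences of 0.65 to 0.99, while the other Psma7 probe gave 0.28 and was not called. In the beta ring, Psmb4, Psmb6 and Psmb7 were called, and Psmb1, Psmb2, Psmb3 and Psmb5 were not (0.19, 0.27, 0.05 and 0.72). Psmb4, at 0.57, was at −0.03 under quantile normalization.

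Among the called subunit genes the 2 largest differences in response were those of Psmd6 and Psmd8, both of the lid. For Psmd6 the response was −0.44 in WT and 1.02 in iNOS-/- cells, a difference of 1.45 (SE 0.16, limma adjusted p = 0.0020). For Psmd8 it was −0.68 in WT and 0.65 in iNOS-/- cells, a difference of 1.33 (SE 0.13, limma adjusted p = 0.0014), and the iNOS-/- M1 arrays, at 11.39 and 11.35, lay below the WT unstimulated arrays, at 11.49 and 11.57. For Psmd14 it was −0.13 and 0.85, a difference of 0.98 (SE 0.17, limma adjusted p = 0.0078). The members called with all 3 scalings were Psmd6, Psmd8, Psmd10 and Psmd14, with a difference above 0, and Psmc3ip, at −2.11. Under quantile normalization the core median of this difference was 0.25 and the regulatory median 0.11, with a bright-gene median of −0.19.

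**Figure D4:**
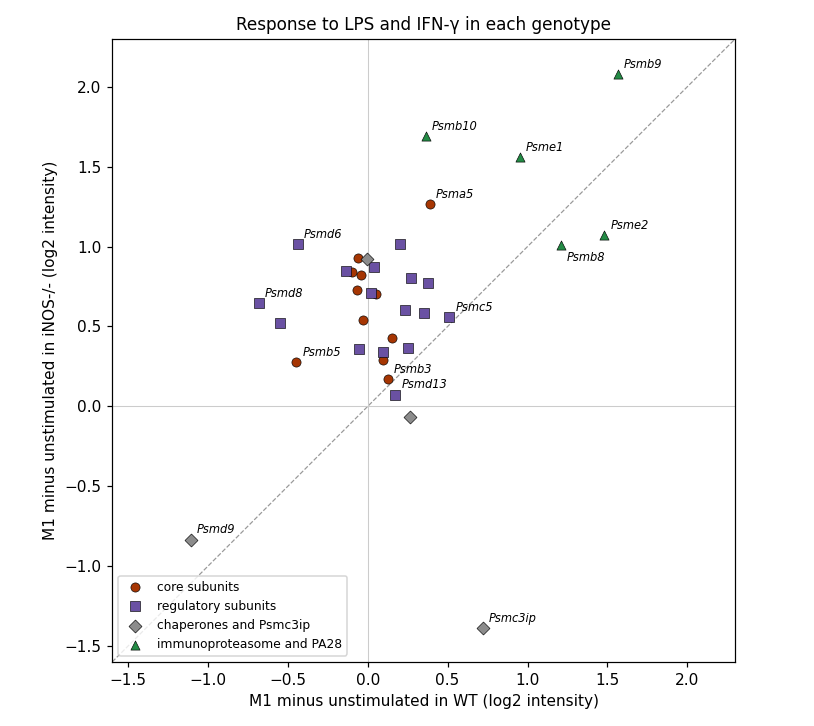
Response to LPS and IFN-γ in WT cells (horizontal axis) and in iNOS-/- cells (vertical axis), as differences in log2 intensity, with 1 point per gene and a dashed line of equal response. Core subunit genes lie between −0.45 and 0.39 in WT and between 0.17 and 1.26 in iNOS-/- cells, while Psmb8, Psmb9, Psme1 and Psme2 lie at 0.95 or higher in both.

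The inducible subunits were measured on the same arrays. Psmb8 and Psmb9, which replace Psmb5 and Psmb6, rose on stimulation in WT cells by 1.21 (SE 0.15, limma adjusted p = 0.0033) and 1.56 (SE 0.15, limma adjusted p = 0.0015). Psmb10, which replaces Psmb7, was at 0.36 by its brightest probe and not called. The other Psmb10 probe went from 9.76 and 9.73 to 10.28 and 10.37 in WT cells. In iNOS-/- cells that probe went from 9.82 and 9.77 to 11.24 and 11.44, and no test result is given for it. Psmb5, Psmb6 and Psmb7 had WT responses of −0.45, −0.10 and −0.04 and were not called. In iNOS-/- cells Psmb8, Psmb9 and Psmb10 rose by 1.01, 2.08 and 1.69. By brightest probe the difference in response was called for Psmb10 (1.33, SE 0.16, limma adjusted p = 0.0026) and not for Psmb8 (−0.20) or Psmb9 (0.51). Psme1 and Psme2, which encode the PA28 cap induced by IFN-γ, rose by 0.95 and 1.48 in WT cells and by 1.56 and 1.07 in iNOS-/- cells.

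Of the 5 genes for other activators and the inhibitor, 4 were higher in iNOS-/- M1 than in WT M1 cells, with Psme2 at 1.04, and Psme3, for the nuclear PA28 gamma, was lower (−0.74, SE 0.12, limma adjusted p = 0.0047). Among 3 measured core assembly chaperone genes, Pomp, the maturation factor of the core, was higher by 0.67 (SE 0.10, limma adjusted p = 0.0047), Psmg2 was lower (−0.98, SE 0.08, limma adjusted p = 0.00067) and Psmg3 was not called (−0.26). Of 8 genes for proteasome-associated factors, 4 were called higher, and the median of the 8 was 0.27. Between these groups 23.7% of all genes tested were called higher and 26.0% lower, as were 42.2% and 21.5% of the 1755 bright genes. Nfe2l1, which drives the proteasome recovery response, had 9.78 and 9.84 on the WT M1 arrays and 10.16 and 10.23 on the iNOS-/- M1 arrays (difference 0.39, SE 0.10, limma adjusted p = 0.023), and its response differed between genotypes by 0.55 (SE 0.14, limma adjusted p = 0.026). Ddi2, for the protease that activates Nfe2l1, was dim and was not called in either comparison, with differences of −1.48 (SE 0.59) and −1.40 (SE 0.83). The values of this and the previous paragraph are given with rank-invariant scaling alone. Nfe2l1, at a mean log2 intensity of 9.82, was among the bright genes. Their median was 0.21 between the M1 groups and 0.25 for the difference in response. Under quantile normalization these medians were −0.14 and −0.19.

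Markers of other cell types and states moved across the same groups. The summed intensity of the dendritic cell markers ran from 948 to 969 on the WT unstimulated arrays, 16700 to 17300 on the WT M1 arrays, 14000 to 14900 on the iNOS-/- unstimulated arrays and 37000 to 38800 on the iNOS-/- M1 arrays, with 6 of the 9 markers detected on all arrays and Flt3 on none. The highest intensities in the sums of the M1 groups were those of Ccl17 and Il4i1, with differences of 0.78 and 1.59 between these groups. Between the M1 groups 4 of its 8 tested markers were called higher and 1 lower: Cd209a was at 4.79 and 5.16 on the WT M1 arrays and was not detected on the iNOS-/- M1 arrays. Itgax, at −0.44, was not called. The granulocyte markers ran from 1130 to 1150, 1400 to 1510, 1690 to 1750 and 3880 to 4000 in the same order, with 3 of 10 detected on all arrays and Mpo, Ctsg and Prtn3 on none. Mean log2 intensities in this order were 0, 7.15, 7.79 and 9.51 for S100a9. They were 0.73, 4.10, 2.92 and 5.64 for Camp, and 0.63, 5.24, 3.59 and 6.36 for Ngp. Mmp8 went the other way from WT unstimulated cells, with 7.52, 5.79, 6.19 and 6.18. Of the 7 tested granulocyte markers 3 were called higher between the M1 groups. The differences ran from 0.004 to 2.35 over all 7, and S100a8 (1.36) gave the highest intensity in the sums. The markers of dividing cells ran from 2740 to 2860, 4810 to 5120, 5540 to 5560 and 2820 to 3130, with 8 of 11 detected on all arrays. Between the M1 groups 7 of 9 tested were called lower and Tpx2 higher (0.79), and Cenpa (−0.46) gave the highest intensity in the sums. The macrophage markers ran from 30000 to 30200, 31900 to 34300, 23900 to 24800 and 35000 to 35600, but 5 of the 8 were called lower and 2 higher between the M1 groups, with a median difference of −0.63. Lyz2 gave the highest intensity in the sums, with mean log2 intensities of 14.38 in WT M1 and 14.35 in iNOS-/- M1 cells. Cd14 had means of 11.52 and 12.97 in these groups, the largest rise of the list (1.45). Csf1r, the receptor of M-CSF, was at −1.29, Fcgr1 at −1.03 and Cd68 at −0.92. The iNOS-/- M1 arrays thus had the highest sums of the dendritic cell, granulocyte and macrophage lists, while single markers of these lists differed in direction. The part of cell composition in the proteasome values was not tested. In bulk RNA of this kind, a change in the number of cells of a type and a change in RNA per cell cannot be told apart.

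Several genes had more than 1 tested probe, and their probes can be set side by side. Between the M1 groups, 11 members had more than 1 tested probe, and 0 of them had probes of opposite sign. For 7 of the 11 all probes were called higher, and for Psmd2 and Psmd9 none was called. Psmb2 and Psmd12 had 1 of 2 probes called, with the other at 0.21 and 1.01. Both Psmd7 probes were called, at 0.55 and 1.22. Psmd10 had 3 probes, at 0.67 to 1.24, and Psmb7 had 3, at 0.53 to 0.76, all called. In the WT response, where most differences were small, 7 of the 11 had probes of opposite sign. The Psmd10 probes ran from −0.31 to 0.48 in that response with 1 called each way, so no direction is given for that gene there. The Psmd2 probes disagreed in the iNOS-/- response, at −0.49 and 0.87, with neither called.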

How the data were processed

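The authors deposited a scanner report with an intensity for each probe and array, not normalized between arrays, and a detection p-value for each probe and array, also deposited. The methods give background subtraction, rank-invariant normalization, 1 for negative values, log2 and limma, and the submitters' processing notes name GenomeStudio and limma 3.14.4. The file header states neither normalization nor subtraction, but undetected probes lie around 0, so no further background was removed before the scaling. The array is given as MouseRef-8 in the series text and as MouseWG-8 in a protocol. 0 value columns lacked a sample.

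For scaling, a slope with no intercept was fitted robustly (MASS 7.3.60.0.1) between each array and the average of all arrays, over probes of stable rank between the 0.5 and 0.9 quantiles (rank tolerance 0.05). Values below 1 became 1, and log2 was taken. A model of the 4 groups was fitted to the 8 arrays with limma 3.58.1 in R 4.3.3, with Benjamini-Hochberg adjustment over 13868 probes whose detection p-value was under 0.05 on at least 2 arrays. The methods' details beyond these names are not given in the sources used here. A gene is given by its brightest tested probe, and its call is an adjusted p under 0.05. In each comparison, full statistics were given to called members with the largest change, up to 5 each way in each particle, and others are named to complete a ring or role. The procedure was tested on simulated arrays. The number of arrays limits the precision. The members, gene lists and tests were chosen with earlier results of these data known. Figures were drawn with matplotlib 3.10.9. Alternatives were quantile normalization, neqc, a floor of 16, other detection filters, a fit on the 4 arrays compared, the replicate number as a block, averaged probes, a 2-fold minimum, counts of probes and each array left out. An intercept in the scaling line was added after seeing the data.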

Additional observations from a re-analysis of the deposited data

Results flagged for a closer look

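For 14 of the 31 members the response to LPS and IFN-γ differed between the genotypes, by the test of the difference itself. It was above 0 for 13 and below 0 for 1, where 20.1% and 23.6% of all genes were called each way. Among the 1755 bright genes 37.9% were called above 0 and 17.3% below 0, so bright genes leaned the same way. Of the 21 members of that brightness, 15 lay above the bright-gene median with rank-invariant scaling, and 14 with quantile normalization and with neqc. The calls that held with quantile normalization and neqc as well were those of Psmd6, Psmd8, Psmd10, Psmd14 and Psmc3ip. All values here are the iNOS-/- response minus the WT response in log2 intensity, with limma p-values after Benjamini-Hochberg adjustment. In the core particle the differences were 0.99 for Psma4 (adjusted p = 0.0023), 0.94 for Psmb6 (adjusted p = 0.0052), 0.87 for Psma5 (adjusted p = 0.011), 0.86 for Psmb7 (adjusted p = 0.014), 0.79 for Psma2 (adjusted p = 0.0064), 0.65 for Psma7 (adjusted p = 0.028) and 0.57 for Psmb4 (adjusted p = 0.013). In the regulatory particle they were 1.45 for Psmd6 (adjusted p = 0.0020), 1.33 for Psmd8 (adjusted p = 0.0014), 0.98 for Psmd14 (adjusted p = 0.0078), 0.69 for Psmc2 (adjusted p = 0.0072) and 0.53 for Psmd12 (adjusted p = 0.018). The Psmb7 difference was not called without iNOS-/- unstimulated replicate 2 (limma adjusted p = 0.051), under quantile normalization (limma adjusted p = 0.22) or under neqc (limma adjusted p = 0.13). The chaperone gene Psmd10 differed by 0.93 (adjusted p = 0.0050). Psmc3ip, which encodes no subunit, differed by −2.11 (adjusted p = 0.0059), from a WT response of 0.72 that was not called and a fall of 1.39 in iNOS-/- cells.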

How the results depend on the processing

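The counts moved with the scaling between arrays and with the size of change required. Of the 31 members, 24 were called between the M1 groups, 21 in the iNOS-/- response and 14 for the difference in response, and these became 11, 12 and 8 under quantile normalization. Under neqc they were 16, 13 and 11. Apart from the 2-fold minimum, shares of all genes called are given for the main settings alone, so the changed counts are not set against all genes. The unstimulated comparison called 6 members, and 12 under quantile normalization, 16 under neqc, 12 with detection required on all 8 arrays and 1 in a fit on the 4 arrays compared. The WT response called 6, and 11 under neqc, 2 in a fit on the 4 arrays compared and 10 when probes were counted. Both counts of 6 became 9 with a floor of 16 and when the scaling line had an intercept. With a 2-fold minimum the counts were 3 between the M1 groups, 4 in the iNOS-/- response, 3 for the difference in response, 1 unstimulated and 1 in the WT response. The intercept, chosen after seeing the data, moved the median of all genes between the M1 groups from −0.03 to 0.21, with the core median at 0.58 and the regulatory median at 0.48.

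With each array left out in turn, the counts ran from 17 to 23 between the M1 groups, 20 to 22 in the iNOS-/- response, 12 to 14 for the difference in response, 2 to 6 unstimulated and 1 to 4 in the WT response. The unstimulated count fell to 2 without either WT unstimulated array or without iNOS-/- unstimulated replicate 2, and to 3 without either WT M1 array or iNOS-/- unstimulated replicate 1. The WT response count fell to 1 without WT unstimulated replicate 2 or WT M1 replicate 1, to 2 without WT M1 replicate 2, and to 3 without WT unstimulated replicate 1 or either iNOS-/- unstimulated array. A group left with 1 array was assumed to vary like the others.

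Same-numbered arrays did not deviate together (correlations of −0.034 to 0.027 over 9687 probes). With the replicate block the counts were 21 between the M1 groups, 22 in the iNOS-/- response, 14 for the difference in response, 4 unstimulated and 4 in the WT response. Over the called members with the largest changes (up to 5 each way per particle and comparison), 647 values under the alternatives kept their side of the threshold, 107 lost the call and 0 changed direction. Among the other called members, Psmb2 and Psmb4 turned sign under quantile normalization in the iNOS-/- response (−0.18 and −0.13), as did Psmb4 in the difference in response (−0.03) and Psmb1 between the M1 groups (−0.04, also under neqc). Dim probes limit the values of Psmc6, Psmd2 and Psmd9.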
